A study of Mus musculus with 24 samples.

Results

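The 24 samples are mammary tumors of BALB/c mice, an inbred strain. The high tumors were the 5 with the highest mean ratio over the probes of Esr1, Prlr, Gata3 and Foxa1. The low tumors were the 5 with the lowest. Both were chosen among the 17 tumors whose Cy5 signal was not dimmed. The other 7 of the 17 were the middle tumors, and 7 more (MSU_24, MSU_28, MSU_93, MSU_96, MSU_42, MSU_59a and MSU_59b) were left out for dim Cy5. All mice received 7,12-dimethylbenz[a]anthracene (DMBA), a carcinogen given by gavage during puberty. They ate a low-fat diet (LFD), a diet high in animal fat (HFD), or switched between these after puberty (LFD-HFD, HFD-LFD). Tumors are called early or late by the time at which they arose. Total RNA of each tumor was set against Universal Mouse Reference RNA, a mix of RNA from 11 mouse cell lines, on a two-color Agilent array, so that a value is the log2 ratio of tumor to reference for 1 gene, and a value above 0 means only more than in the cell lines. Each array is a separate tumor, and the labels do not name its animal.

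The 4 ranking genes belong to the hormone-sensing lineage of the mammary gland. Esr1 encodes estrogen receptor alpha and Prlr the prolactin receptor, and Gata3 and Foxa1 are transcription factors of luminal cells, Foxa1 opening chromatin where the estrogen receptor binds. Estrogen and progesterone act on these cells, which pass the signal to neighboring cells through secreted factors such as amphiregulin, Wnt4 and RANK ligand. Prolactin acts through Jak2 and Stat5 and drives the alveolar cells that make milk. Basal cells lie outside the luminal layer, contract when milk is let down, and carry keratins 5 and 14.

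The 5 high tumors were MSU_105, MSU_34, MSU_45, MSU_122a and MSU_67, and all of them arose late. MSU_105, MSU_34 and MSU_122a came from LFD mice, MSU_45 from an LFD-HFD mouse and MSU_67 from an HFD mouse. The 5 low tumors, MSU_54, MSU_97, MSU_62b, MSU_768 and MSU_51, all arose early, in 2 HFD mice (MSU_97 and MSU_768) and 3 HFD-LFD mice. High and low therefore cannot be told apart from late and early, and 4 of the 5 high but none of the low tumors had LFD in puberty. The values of each gene below follow this order of tumors within a group. The labels put the tumor in Cy5 whereas the methods describe the reference in that dye; the tumor was taken to be in Cy5 because Cy5 varied more between arrays (median SD 0.45, against 0.17 for Cy3, on the log2 scale) and because both Y chromosome probes were brighter in Cy3 on 17 of 17 arrays. The score, the mean log2 ratio over the 8 probes of the 4 genes, was 4.31, 3.62, 3.52, 3.16 and 2.96 in the high and -0.09, -0.22, -0.33, -0.45 and -0.53 in the low tumors. The last tumor inside the high group stood at 2.96 and the next outside it at 2.73, and the corresponding pair at the low end stood at -0.09 and 0.04. Esr1 has the most probes of the 4 genes and so the most weight in the score. With the 4 gene means weighted equally, the late tumor MSU_86 replaced the early MSU_54 among the low tumors.

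The tumors were chosen by the measured ratios of these 4 genes, whose values are given without a test. Foxa1 and Prlr differed most between the group means. Foxa1 was at 4.45 ± 0.30 (SD, n = 5) in high and -1.26 ± 0.53 (SD, n = 5) in low tumors. Prlr was at 5.12 ± 0.35 and -0.54 ± 0.23, Gata3 at 3.51 ± 0.34 and 0.69 ± 0.62, and Esr1 at 2.48 ± 0.90 and -0.24 ± 0.25 (SD, n = 5 each). Esr1 spread most among the high tumors, from 1.64 in MSU_67 to 3.99 in MSU_105. Among the 7 middle tumors Foxa1 ranged from -4.87 in MSU_86 and -3.47 in MSU_137 to 3.88 in MSU_58, and these late tumors MSU_86 and MSU_137 had less Foxa1 than any low tumor while their Gata3, at 2.21 and 2.22, was above that of every low tumor. In MSU_137 and MSU_86 Prlr was at 1.89 and 1.11 and Esr1 at -0.52 and 0.19.

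**Figure D1:**
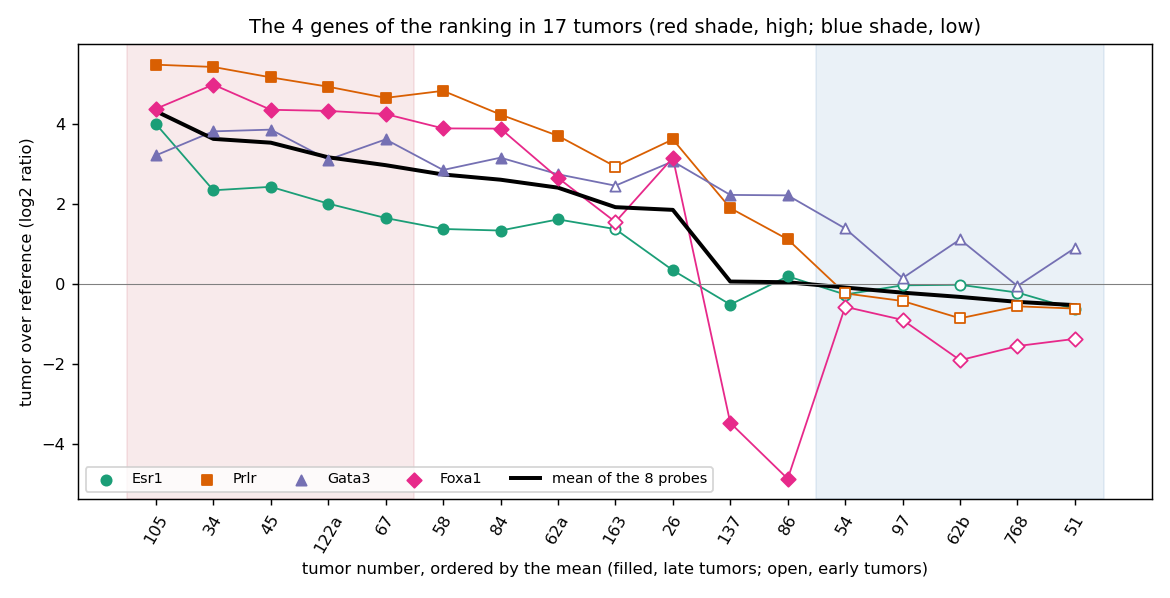
Score and log2 ratio (tumor over reference) of the 4 ranking genes in the 17 tumors, ordered by score. Filled points are late and open points early tumors, the black line is the score, and shading marks the high and low tumors. The score runs from 4.31 in MSU_105 to -0.53 in MSU_51, and Foxa1 is lowest in the middle tumors MSU_137 and MSU_86.

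The Foxa1 promoter is shown because the gene both ranks the tumors and carries a match to the recognition letters of its own protein family. The 250 bases before its RefSeq start (GRCm38.p6, chr12:57546112-57546361, minus strand) hold TGTTTAC once, on the reverse strand, so that the capitals read GTAAACA.
Foxa1: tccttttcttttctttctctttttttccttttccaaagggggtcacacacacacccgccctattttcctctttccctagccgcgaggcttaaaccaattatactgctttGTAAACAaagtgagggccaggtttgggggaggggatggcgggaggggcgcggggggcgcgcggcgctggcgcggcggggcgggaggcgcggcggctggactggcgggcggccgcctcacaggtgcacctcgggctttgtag

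The tumor channel exceeded background clearly in 66.8% to 89.2% of spots, by array (67.8% to 87.7% in high, 66.8% to 81.2% in low tumors), and the arrays correlated at 0.57 to 0.97 with each other. High tumors lay on slides 1, 3 and 4 and low tumors on slides 2 and 4, so that slide 4 alone held both (1 high and 3 low tumors), and these were their only arrays in the second scan session. Outside the 4 ranking genes, 20906 genes were tested with limma, which gives every adjusted p below. A difference is high minus low on the log2 scale, followed by ± its standard error. Of the 20906 genes 4866 (23.3%) differed between high and low tumors at an adjusted p under 0.05, 2817 (13.5%) higher and 2049 (9.8%) lower in high tumors. List counts below are to be read against these shares. At an unadjusted p under 0.05 in limma, 4257 genes were higher and 3232 lower, the background of list counts at that threshold. The groups did not overlap in 3795 genes (18.2%), and 3531 (16.9%) did not overlap and differed. Within the first session, with 4 high and 2 low tumors, 3109 genes were called, and within slide 4 3604, a count that rests on 1 high tumor assumed to vary like the low ones and gives no check of the spread among high tumors. The p-values measure association with the ranking on these arrays. Differences over 2 on the log2 scale, over 4-fold, were found for 286 genes higher and 245 lower. The median difference over all genes was 0.04. With arrays centered on their medians in place of loess it was -0.32 and 17.8% of 7033 called genes were higher, against 57.9% of 4866. Small differences in one direction are therefore relative to the loess scale. In whole tumors fewer cells of a type and less RNA per cell cannot be told apart.

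The genes that rose most included secretory and metabolic genes. Fcgbp, a mucin-like secreted protein, was at 4.13, 2.43, 3.43, 3.13 and 3.02 in the high and -2.92, -3.71, -3.26, -2.98 and -2.44 in the low tumors. No low tumor came near the high ones, and the difference was 6.29 ± 0.31 (adjusted p = 5.54e-07), or 78.2-fold. Its probe covers bases 28905517 to 28905576 of chromosome 7 (mm9), and a dimmer probe of the gene gave 2.64. The other 9 were, like Fcgbp, the largest rises among called genes whose groups did not overlap, so their lack of overlap follows from the choice. They were Cyp3a25, Cyp3a57 and Cyp3a59, cytochrome P450 enzymes that oxidize steroids and foreign compounds, Cck, the peptide hormone cholecystokinin, Agtr1a, an angiotensin II receptor, Cnn1, calponin of smooth muscle, Gipc2, Sec14l4 and Tlcd4. Their differences ranged from 5.27 for Agtr1a to 6.2 for Cyp3a25. Gipc2 had the smallest standard error of the 10, at 2.52, 2.72, 2.62, 2.98 and 2.74 in high and -2.41, -2.81, -3.29, -3.00 and -2.81 in low tumors (difference 5.58 ± 0.16, adjusted p = 3.14e-08). Sec14l4 had its highest value, 3.93, in the late tumor MSU_86, whose score was 0.04.

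The 3 Cyp3a genes lie on chromosome 5. Cyp3a25 was at 2.35, 3.50, 2.56, 2.14 and 2.93 in the high and -2.86, -3.76, -3.98, -3.69 and -3.24 in the low tumors (difference 6.2 ± 0.28, adjusted p = 3.44e-07). Cyp3a57 differed by 5.80 ± 0.22 and Cyp3a59 by 5.28 ± 0.25, with a second Cyp3a59 probe at 3.97. Of the middle tumors MSU_137 had the lowest value of all 3, at -3.92, -2.55 and -3.19, within the range of the low tumors. Cyp3a genes are near copies of each other, so that a probe of one may detect another, and their values may not be independent. The promoters are shown for the letters they share. In 250 bases before the RefSeq start, each holds AGGTCA, the core letters bound by nuclear receptors, and its reverse complement TGACCT, 15 bases apart (capitals). Aligned bases were identical at 89.0% (Cyp3a25 and Cyp3a57), 94.8% (Cyp3a25 and Cyp3a59) and 90.2% (Cyp3a57 and Cyp3a59) of positions. On GRCm38.p6 they are chr5:146009619-146009868 (minus strand), chr5:145345019-145345268 (plus) and chr5:146079008-146079257 (plus).
Cyp3a25: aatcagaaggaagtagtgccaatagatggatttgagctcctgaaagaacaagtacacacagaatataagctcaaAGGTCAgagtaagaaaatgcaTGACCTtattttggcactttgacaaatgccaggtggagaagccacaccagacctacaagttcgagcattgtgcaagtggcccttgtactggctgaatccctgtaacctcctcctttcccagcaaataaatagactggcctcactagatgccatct
Cyp3a57: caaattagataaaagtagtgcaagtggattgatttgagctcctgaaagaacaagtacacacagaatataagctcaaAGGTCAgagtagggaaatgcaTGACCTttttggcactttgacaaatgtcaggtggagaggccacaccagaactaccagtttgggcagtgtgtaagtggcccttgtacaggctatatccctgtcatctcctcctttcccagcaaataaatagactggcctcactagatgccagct
Cyp3a59: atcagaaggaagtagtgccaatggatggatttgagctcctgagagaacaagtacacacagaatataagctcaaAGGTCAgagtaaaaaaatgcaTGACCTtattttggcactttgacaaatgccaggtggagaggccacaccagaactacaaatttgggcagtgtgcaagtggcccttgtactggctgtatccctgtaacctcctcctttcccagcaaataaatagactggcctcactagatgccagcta

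The recognition letters of the ranking factors and of Stat5 were counted in the promoters of genes that were higher or lower. AGGTCA stood on either strand in 12.3% of 2030 promoters of genes higher in high tumors, 9.70% of 1351 of genes lower and 11.8% of all 13278 tested with a promoter, against 13.8% of all 27025 genes with one. Among the 198 promoters of genes higher by over 2 on the log2 scale the share was 15.7%. The full estrogen response element, GGTCA and TGACC with any 3 bases between, stood in 0 of 2030 promoters of genes that were higher and 5 of 13278. The Gata letters AGATAA were in 5.91%, 6.22% and 7.0% of promoters of genes higher, genes lower and all genes tested, in 10.6% of the 198 and in 10.3% of all 27025. TGTTTAC was in 2.27%, 2.59% and 2.41%, in 3.03% of the 198 and in 3.09% of all 27025. TTCNNNGAA, the Stat5 palindrome, was in 5.67%, 6.29% and 6.2%, in 3.54% of the 198 and in 7.18% of all 27025. These shares describe letters in a short window, from RefSeq promoters matched by symbol, and AGGTCA is part of some matches to the full element.

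Of 19 listed targets of estrogen and progesterone, 9 were higher in high tumors, 0 were lower and 10 did not pass (11 and 0 at an unadjusted p under 0.05), with a median difference of 0.99 against 0.04 over all genes. Areg, the amphiregulin ligand through which estrogen drives duct growth, was at 3.63, 3.91, 4.19, 3.56 and 3.84 in high and 0.93, 0.16, 0.65, 0.19 and 0.36 in low tumors (difference 3.37 ± 0.18, adjusted p = 5.94e-07). Stc2, the secreted glycoprotein stanniocalcin 2, was at 4.08, 4.13, 4.29, 3.82 and 3.41 in high and 0.53, -0.15, -0.06, 0.44 and 0.16 in low tumors (difference 3.76 ± 0.19, adjusted p = 5.94e-07). The high tumors lay within a narrow range for both, at 3.41 or above, and no low tumor was above 0.93. Wnt4, a ligand induced by progesterone, was at 1.72, 0.26, 1.94, 0.54 and 0.87 in high and -1.07, -3.18, -1.96, -2.77 and -1.40 in low tumors (difference 3.14 ± 0.45, adjusted p = 0.000547). Igfbp5, which binds insulin-like growth factors, differed by 3.24 ± 0.27, Cxcl12, a chemokine, by 2.73 ± 0.32, and Ramp3, a partner of peptide hormone receptors, by 1.59 ± 0.24. Slc7a2, an amino acid transporter, differed by 1.34 ± 0.22, and was well above background in 3 of 5 low tumors. The classic targets Greb1, Tff1, Ccnd1, Ctsd, Nrip1, Agr2 and Pdzk1 were among the 10 that did not pass.

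Other targets were uneven among the high tumors. Tnfsf11, RANK ligand, was at 4.09, 1.45, 2.79, 0.04 and 2.26 in high and -0.57, -0.49, -0.06, -0.11 and -0.51 in low tumors (difference 2.48 ± 0.59, adjusted p = 0.0112), so that MSU_122a was close to the low tumors, of which 3 of 5 were well above background. Calca, the calcitonin gene, was at 3.65, -1.86, 0.23, -3.79 and -1.25 in high tumors and between -4.89 and -4.12 in low tumors (difference 3.93 ± 1.07, adjusted p = 0.0217). Both genes were highest in the middle tumor MSU_58, at 4.12 and 3.72, followed by MSU_105, and 4 of 5 low tumors were well above background for Calca. The progesterone receptor Pgr did not pass the filter on signal, because the cell line reference was over 10 on 1 to 7 of 17 arrays for its 3 probes. With that filter set on the tumor channel alone it was at 4.81, 4.55, 5.56, 3.75 and 3.98 in high and 2.70, 1.22, 2.68, 1.89 and 2.2 in low tumors (difference 2.39 ± 0.37, adjusted p = 0.00116). All 5 high tumors were above all 5 low ones.

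**Figure D2:**
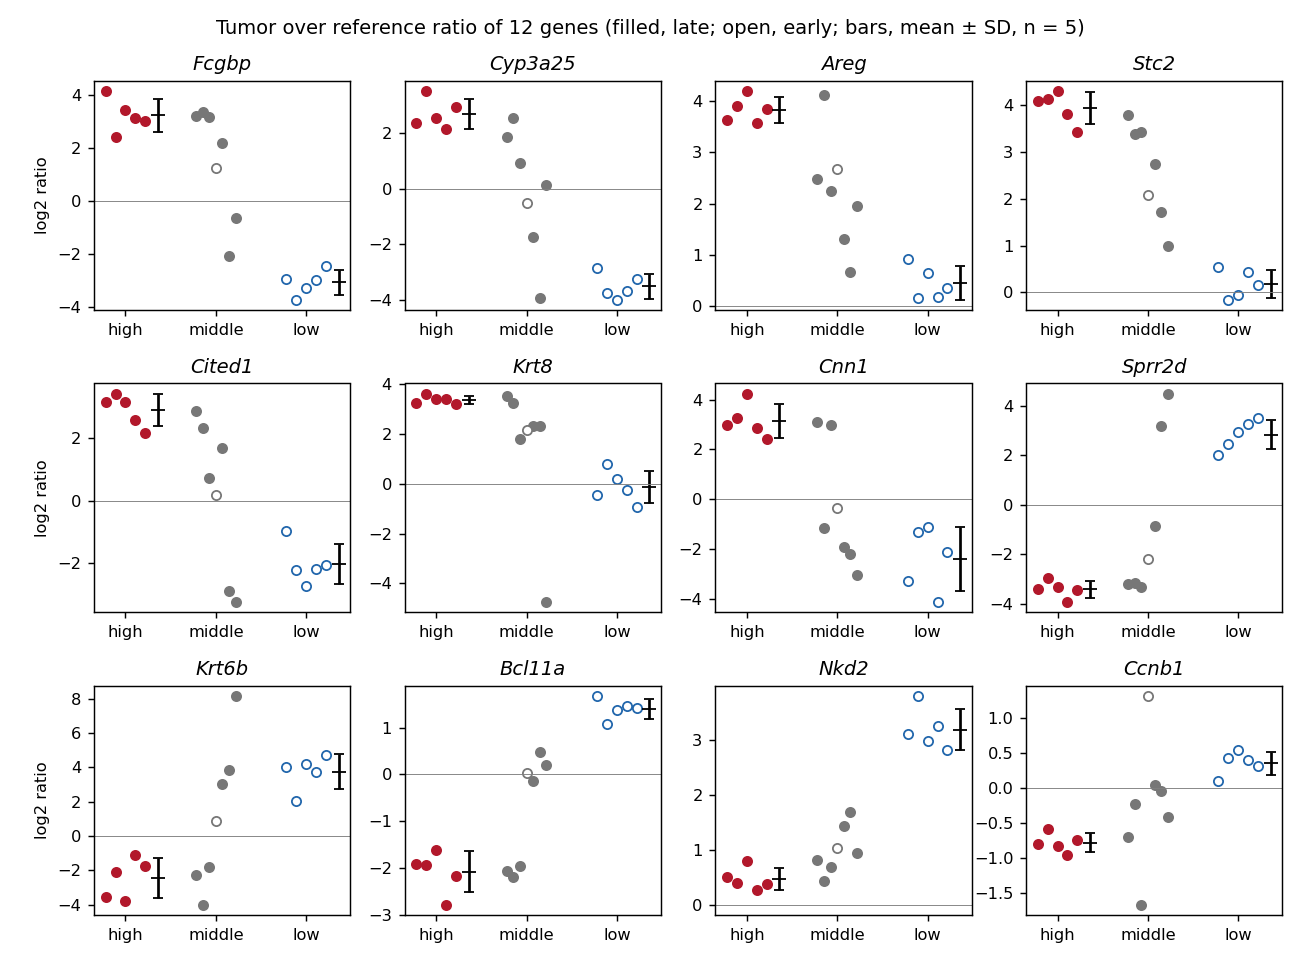
Log2 ratio (tumor over reference) of 12 genes in the 5 high (red), 7 middle (grey) and 5 low (blue) tumors, filled for late and open for early, with the mean and SD of the high and low tumors as bars (n = 5). In each of the 12 genes the high and low tumors do not overlap, as in 18.2% of all genes tested. For Fcgbp, Cyp3a25, Cnn1, Sprr2d and Krt6b this follows from the rule that named them. Krt8 runs from 3.50 to -4.75 among the middle tumors.

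Of 13 steroid, thyroid, retinoid and growth hormone receptors tested, 3 were higher, 2 lower and 8 did not pass. Their median difference was 0.09, against 0.04 over all genes. Over all genes 13.5% were higher and 9.8% lower, so these counts are not read as a trait of the receptors. Among those higher, Thra, a thyroid hormone receptor, differed by 0.95 ± 0.20 and Vdr, the vitamin D receptor, by 0.69 ± 0.19, the latter with overlap between high and low tumors. With arrays centered on their medians both lost their call, and Vdr was also not called without MSU_105 or without MSU_51. The number of the 13 receptors called higher was 1 in each of these settings. Rarb, a retinoic acid receptor, was lower, with a difference of -2.0 ± 0.16 (adjusted p = 1.13e-05), and 4 of 5 high tumors were well above background. A second Rarb probe gave -0.81, and a second Thra probe 0.37. Igf1r, the receptor for insulin-like growth factor 1, was lower too, with -1.53 ± 0.22 (adjusted p = 0.000542). Esr2, the second estrogen receptor, did not pass.

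Ligands of the EGF family differed in both directions. Of 13 genes tested, 4 were higher (Areg, Nrg4, Nrg2, Erbb4) and 3 lower (Tgfa, Ereg, Hbegf). Tgfa, transforming growth factor alpha, was at 0.08, 0.11, -0.32, 0.75 and 0.53 in high and 2.22, 2.64, 1.96, 3.24 and 2.32 in low tumors (difference -2.25 ± 0.26, adjusted p = 0.000139). Areg and Tgfa thus ran in opposite directions, although both bind the EGF receptor. Ereg differed by -1.63 ± 0.26, with 4 of 5 high tumors well above background. Hbegf differed by -0.63 ± 0.21, with overlap, and its adjusted p of 0.0479 was 0.0529 to 0.110 without any 1 tumor other than MSU_122a and MSU_97. The neuregulins Nrg4 and Nrg2, ligands of Erbb3 and Erbb4, differed by 1.57 ± 0.30 and 1.28 ± 0.22, with a second Nrg2 probe at 0.61. Erbb4 differed by 1.22 ± 0.31 with overlap between groups, and was well above background in 3 of 5 low tumors. Egfr and Erbb2 did not pass, and Erbb3 was 0.25 apart (adjusted p = 0.572).

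Luminal transcription factors went both ways. Of 18 tested, 6 were higher and 5 lower, with a median difference of -0.04. Cited1, a coactivator of the estrogen receptor, was at 3.17, 3.43, 3.15, 2.60 and 2.19 in high and -0.96, -2.2, -2.72, -2.18 and -2.05 in low tumors (difference 4.93 ± 0.32, adjusted p = 2.72e-06). Spdef, an ETS factor of secretory luminal cells, differed by 3.37 ± 0.47, and Hey1, a Notch target, by 2.97 ± 0.28. Bcl11a, a factor linked to mammary progenitor cells, was lower, at -1.92, -1.93, -1.61, -2.78 and -2.17 in high and 1.67, 1.08, 1.38, 1.47 and 1.42 in low tumors (difference -3.49 ± 0.20, adjusted p = 1.16e-06). A second Bcl11a probe gave -4.27. Myb differed by -2.03 ± 0.36, Lmo4 by -1.08 ± 0.23, Ehf by -0.86 ± 0.14 and Tfap2c by -0.35 ± 0.12, the last with overlap and called with all 10 tumors or without MSU_34 only. Myb, known as an estrogen-responsive gene of luminal cells, was lower in every high than in any low tumor.

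Genes of the prolactin and Stat5 pathway were higher at several steps. Of 15 genes tested 8 were higher, 1 lower and 6 did not pass, with a median difference of 0.92. Stat5a, the transcription factor that prolactin activates, was at 2.76, 1.35, 1.97, 1.08 and 1.70 in high and -0.32, -0.61, 0.15, -1.15 and -0.76 in low tumors (difference 2.32 ± 0.32, adjusted p = 0.000444). Stat5b differed by 1.23 ± 0.16, Jak2, the kinase bound to the receptor, by 0.92 ± 0.18, and Elf5, the alveolar ETS factor, by 1.27 ± 0.30. The feedback inhibitors Cish and Socs2 differed by 1.19 ± 0.30 and 1.23 ± 0.30, and Cav1, another inhibitor, by 1.23 ± 0.40. The groups overlapped in these 3 inhibitors, and the adjusted p of Cav1 was 0.0576 to 0.108 without any 1 tumor other than MSU_67 and MSU_97. Nfib, which acts with Stat5 on milk genes, was lower, with -0.62 ± 0.15 (adjusted p = 0.0114). With arrays centered on their medians 3 of the 8 were still called, and Jak2, Elf5, Cish, Socs2 and Cav1 were not.

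Milk protein genes were higher in 4 of 15 cases and lower in 0 (6 and 0 at an unadjusted p under 0.05), with a median difference of 1.35. Without MSU_768 2 were called. Csn3, kappa-casein, was at 5.73, 5.59, 6.03, 5.59 and 5.42 in high and 3.25, 1.51, 3.34, 0.74 and 3.53 in low tumors (difference 3.20 ± 0.50, adjusted p = 0.000947). In the middle tumors it was 5.76 to 6.32 in all but MSU_86 (-0.27). Mfge8, a milk fat globule protein, differed by 3.28 ± 0.29, and Lalba and Olah were also higher. The major caseins Csn2, Csn1s1 and Csn1s2a, and Wap, did not pass. The mean of the list ranged from 0.84 to 4.22 among the high tumors, overlapping 0.36 to 1.13 in the low tumors. Among the middle tumors it was 2.10 in MSU_58, 2.41 in MSU_84, 4.85 in MSU_62a, 3.62 in MSU_163, 4.00 in MSU_26 and -0.34 in MSU_86. In MSU_137, whose score was 0.06, it was 4.42, above every high tumor.

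Krt8, Krt18 and Krt19, keratins of the luminal layer, were higher, and Krt7 did not pass. Krt8 was at 3.25, 3.60, 3.40, 3.41 and 3.18 in high and -0.44, 0.80, 0.17, -0.24 and -0.92 in low tumors (difference 3.50 ± 0.27, adjusted p = 8.08e-06). Its partner Krt18 was at 3.50, 3.95, 4.18, 3.83 and 3.68 in high and 0.37, 1.20, 0.75, 0.41 and 0.39 in low tumors (difference 3.20 ± 0.19, adjusted p = 1.17e-06). Krt19 differed by 5.10 ± 0.20, with every high tumor between 4.24 and 4.79. A second, dimmer Krt8 probe gave 2.17. In the luminal epithelium list 7 of 15 were higher and 0 lower (also 7 and 0 at an unadjusted p under 0.05), the other 4 being Cd14, Cldn7, Muc1 and Cldn3, while Epcam, Cdh1, Kit and Cd24a were among those that did not pass. The mean of the list, 1.82 to 2.23 in high and 0.58 to 1.13 in low tumors, did not overlap. The neighboring promoters of Krt8 and Krt18 are shown because these keratins pair in 1 filament and rose together. Each promoter holds AGGTCA, and that of Krt8 also AGATAA (capitals). Only 53.0% of aligned positions are the same. On GRCm38.p6 they are chr15:102004343-102004592 (minus strand) and chr15:102027966-102028215 (plus).
Krt8: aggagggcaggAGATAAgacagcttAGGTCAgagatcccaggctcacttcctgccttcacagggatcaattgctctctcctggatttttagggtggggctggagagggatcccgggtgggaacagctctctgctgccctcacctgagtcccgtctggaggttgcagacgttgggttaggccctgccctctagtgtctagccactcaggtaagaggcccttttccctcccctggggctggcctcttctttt
Krt18: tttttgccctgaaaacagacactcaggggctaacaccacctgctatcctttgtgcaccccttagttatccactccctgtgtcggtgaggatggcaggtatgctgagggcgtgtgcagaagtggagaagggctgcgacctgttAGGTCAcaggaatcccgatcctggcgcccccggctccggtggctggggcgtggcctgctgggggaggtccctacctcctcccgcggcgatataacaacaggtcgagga

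Basal markers went both ways. Of 17 tested, 8 were higher and 4 lower in high tumors. The contractile genes Cnn1, Myh11, Mylk, Tagln and Acta2 made up most of those higher, with Krt15, Oxtr, the oxytocin receptor, and Itga6. Cnn1 was at 2.96, 3.27, 4.22, 2.87 and 2.39 in high and -3.27, -1.32, -1.13, -4.14 and -2.15 in low tumors (difference 5.55 ± 0.56, adjusted p = 5.07e-05), Myh11, smooth muscle myosin, differed by 4.39 ± 0.26 and Mylk, the kinase of its light chain, by 3.61 ± 0.36. A second Mylk probe gave 0.54. Krt14 was lower, with -1.95 ± 0.46 (adjusted p = 0.0101) and overlap between groups, and Cdh3, Itgb4 and Trp63 were lower as well. The 4 probes of Trp63, which encodes p63 of basal and squamous cells, disagreed in direction, from -1.17 to 0.52, and it was not called without MSU_62b or without MSU_51. Krt5 was -0.24 apart (adjusted p = 0.635). Vessels and stroma also hold contractile genes. Of 12 endothelial markers 3 were higher and 0 lower (5 and 0 at an unadjusted p under 0.05), among them Vwf (4.20 ± 0.30), and 5 were called without MSU_105 and 1 with arrays centered on their medians. In addition 3 of 15 fibroblast markers were higher and 1 lower, among them Dcn (2.96 ± 0.34) and Postn (2.43 ± 0.26). Over all genes 13.5% were higher and 9.8% lower. The mean of the endothelial list ran from -1.14 to -0.44 in high and -1.95 to -1.51 in low tumors, and that of the fibroblast list from -2.57 to -1.13 and -2.55 to -1.51. Their part in the contractile genes was not tested.

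**Figure D3:**
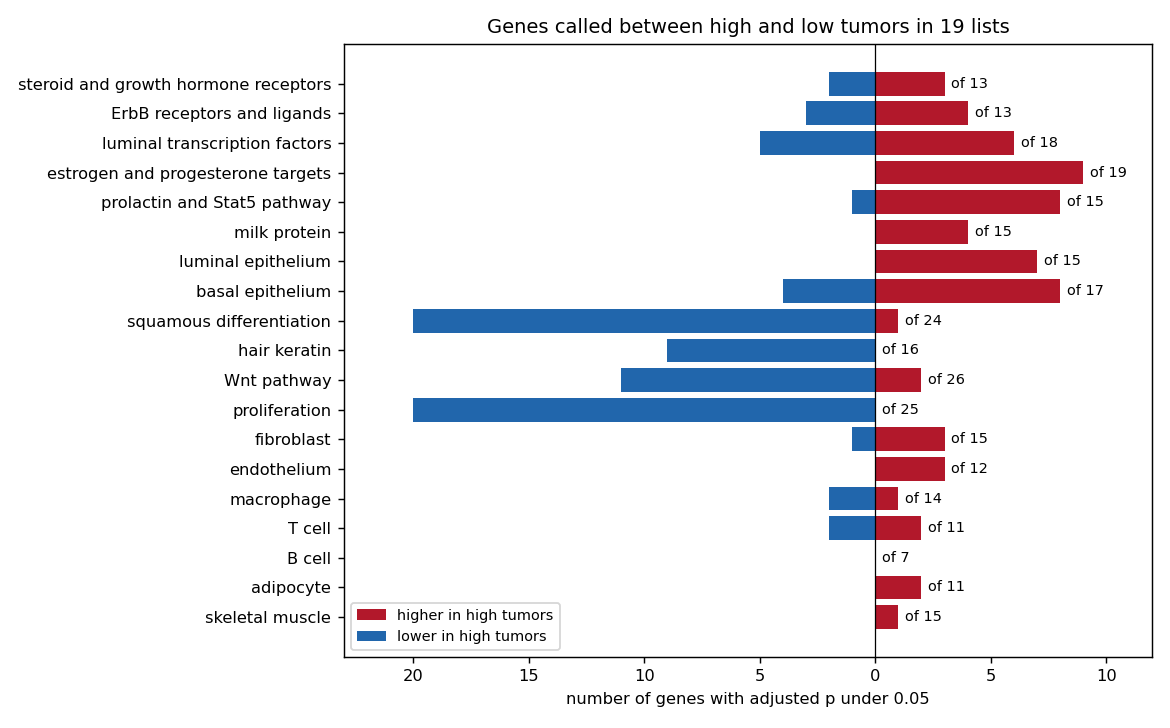
Number of genes of each list that were higher (red, right) or lower (blue, left) in high than in low tumors at an adjusted p under 0.05, with the number tested beside each bar. Called genes of the squamous, proliferation and Wnt lists lie mostly on the lower side, with 20 of 24, 20 of 25 and 11 of 26 genes lower, and the estrogen and progesterone targets on the higher side, with 9 of 19.

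The largest falls included genes of the cornified envelope, the protein shell of dead skin cells. Sprr2d, a small proline-rich envelope protein, was at -3.39, -2.97, -3.33, -3.92 and -3.42 in high and 2.02, 2.48, 2.94, 3.27 and 3.50 in low tumors (difference -6.25 ± 0.28, adjusted p = 2.85e-07), or 76.2-fold lower. Its probe covers bases 92144721 to 92144780 of chromosome 3 (mm9), near those of Lce3a, 2310046K23Rik and EH095282, the other chromosome 3 genes among the 10. Krt6b, a keratin of activated epidermis, was at -3.55, -2.12, -3.78, -1.13 and -1.75 in high and 4.00, 2.02, 4.18, 3.75 and 4.71 in low tumors (difference -6.2 ± 0.59, adjusted p = 3.54e-05). Its second probe gave -2.70. The other 8, from -5.23 ± 0.36 for Calm4 to -6.11 ± 0.47 for Cstdc5, include Cnfn, Scel and Stfa1, with Scel well above background in 3 of 5 high tumors. Sprr, Lce and stefin genes (Stfa1, Cstdc5) are families of near copies whose probes may cross-hybridize.

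Of 24 squamous genes tested 20 were lower and 1, Krt4, higher, with a median difference of -1.90, and 10 were lower with the middle tumors in the fit. Flg, filaggrin, differed by -5.11 ± 0.39 and Sprr1b by -4.69 ± 0.31, the latter well above background in 2 of 5 high tumors. The mean of the list ran from -2.71 to -1.85 in high and -0.53 to 0.32 in low tumors. Hair keratin genes were lower in 9 of 16 cases and higher in 0 (11 and 0 at an unadjusted p under 0.05), with a median of -2.87, but the low tumors differed among themselves. Tchh, trichohyalin, was at 3.70, -1.71, -1.12, 1.47 and 3.20 in low tumors and between -3.78 and -2.99 in high tumors (difference -4.56 ± 0.95, adjusted p = 0.00537), and Krt73 was at 3.24, -1.07, 0.13, 1.43 and 3.35 against -3.03 to -2.17 (difference -3.98 ± 0.76, adjusted p = 0.00318). MSU_97 and MSU_62b had the least of both among the low tumors, and the mean of the list, -2.73 to 2.73 in low tumors, overlapped the high tumors' -2.88 to -2.02. Without any 1 of 8 tumors (all but MSU_97 and MSU_62b) only 2 or 3 of these genes were called.

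The Wnt genes that differed were mostly lower in high tumors. Of 26 Wnt genes tested 11 were lower and 2, Wnt4 and Sfrp1, higher. Nkd2, an inhibitor induced by the pathway, was at 0.50, 0.39, 0.79, 0.27 and 0.38 in high and 3.10, 3.79, 2.97, 3.24 and 2.81 in low tumors (difference -2.72 ± 0.18, adjusted p = 3.15e-06). Notum, a secreted enzyme that inactivates Wnt ligands, was at -0.34, -0.71, -0.46, -0.73 and -0.66 in high and 2.02, 1.94, 1.18, 2.23 and 2.01 in low tumors (difference -2.45 ± 0.19, adjusted p = 7.89e-06). The high tumors varied little in both genes, and the low tumors lay apart. The other 9 were Nkd1, Wif1, Sp5, Tcf7, Lgr5, Lgr6, Znrf3, Rnf43 and Porcn. Axin2, Dkk1, Dkk4 and Wnt10b did not pass the filter on signal, and Lef1, Ctnnb1 and the other Wnt ligands and Frizzled receptors listed were not called. The mean of the list was -0.37 to -0.05 in high and 0.46 to 0.65 in low tumors. In the late tumors MSU_137 and MSU_86, whose scores were next to the low tumors, it was -0.05 and -0.07, close to the high tumors.

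Proliferation genes were lower in 20 of 25 cases and higher in 0 (24 and 0 at an unadjusted p under 0.05), with a median difference of -0.76, and 10 were lower with the middle tumors in the fit. Ccnb1, the mitotic cyclin B1, was at -0.80, -0.59, -0.82, -0.95 and -0.74 in high and 0.10, 0.44, 0.54, 0.40 and 0.31 in low tumors (difference -1.14 ± 0.12, adjusted p = 5.7e-05), and Bub1, a spindle checkpoint kinase, differed by -1.18 ± 0.14. The replication helicase genes Mcm3 to Mcm7, Mki67, Top2a and Pcna were also lower. The differences were small beside those of the squamous genes, but the groups did not overlap in the mean of the list, -0.72 to -0.25 in high and 0.14 to 0.49 in low tumors.

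**Figure D4:**
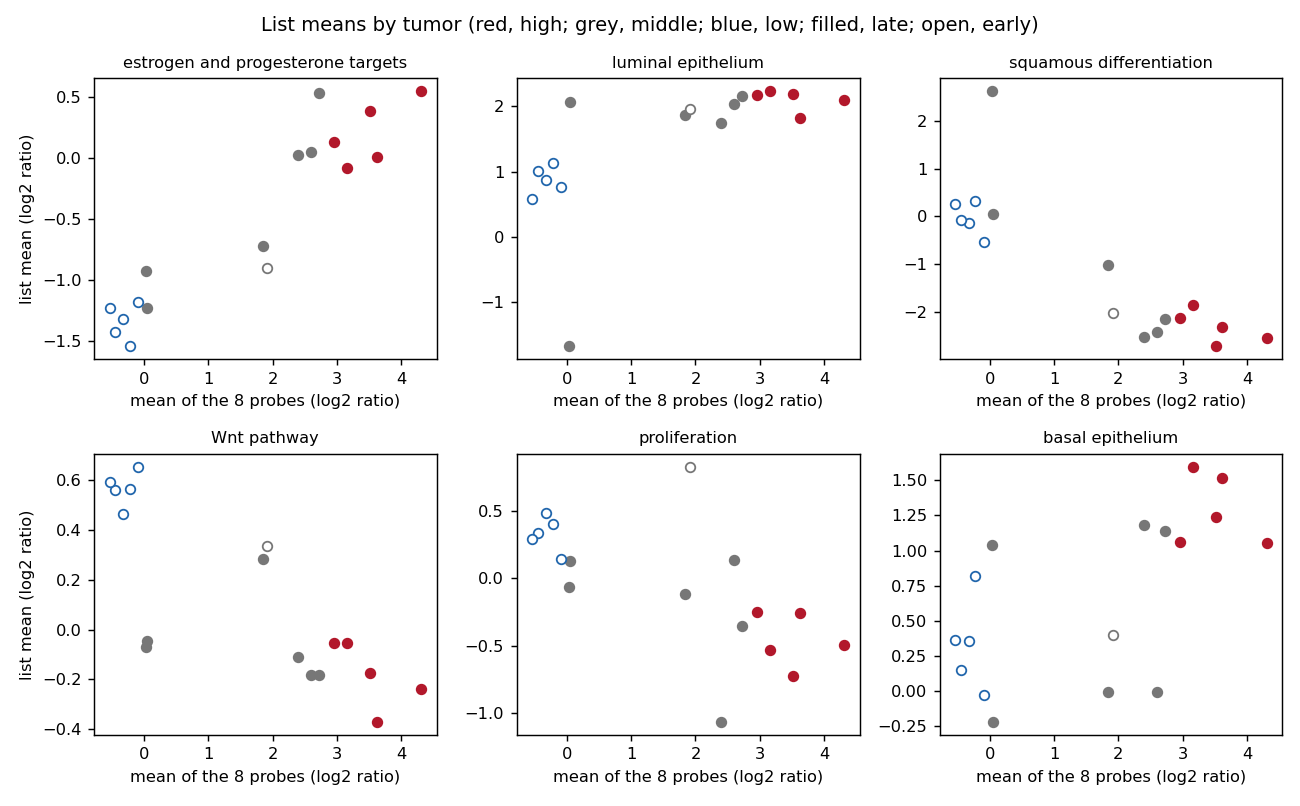
Mean log2 ratio (tumor over reference) over the tested genes of 6 lists against the score (log2) in the 17 tumors, red for high, grey for middle and blue for low tumors, filled for late and open for early. The high and low tumors do not overlap in any of the 6 means, and the late tumors with scores near 0 lie near the high tumors in the Wnt mean.

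Markers of other cell types were mixed, and their shares are to be read against the 13.5% of all genes that were higher and 9.8% that were lower. Of 14 macrophage markers 1 was higher (Cd14, 1.80 ± 0.21, a gene that luminal cells also express) and 2 lower (Msr1, -1.01 ± 0.20, and Lyz2). Of 11 T cell markers Cd3d and Cd8a were higher and Lck (-1.66 ± 0.19) and Cd5 (-1.32 ± 0.20) lower, and 0 of 7 B cell markers were called (also 0 at an unadjusted p under 0.05). The number of T cell markers higher was 0 to 4 when any 1 tumor other than MSU_122a was left out. Among 11 adipocyte markers 2, Plin4 (2.15 ± 0.54) and Pparg (1.35 ± 0.34), were higher, with the mean of the list between -2.88 and 1.01 in high and -3.48 and -2.50 in low tumors. The number of adipocyte markers higher was 5 without MSU_105, 0 with arrays centered on their medians, 8 once scan session was blocked, and 11 with slide as a random block or within session 2, where MSU_45 was the 1 high tumor. Among 15 skeletal muscle markers Myh2 alone was called (2.48 ± 0.78). It lost the call without any 1 of MSU_67, MSU_97, MSU_62b, MSU_768 and MSU_51 (adjusted p 0.0601 to 0.0894 in limma). Mylpf was called without MSU_45, MSU_97 or MSU_768. The number of muscle markers higher was 0 without MSU_67, MSU_62b or MSU_51, and 2 without MSU_45. The list mean was -4.79 to -1.57 in high and -5.76 to -4.20 in low tumors. The part of fat, vessel, stroma or muscle in other differences was not tested.

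Because onset and rank coincide, the ranking was also followed within the 11 late tumors, with the slope on the score scaled to the gap of 3.84 between the group means. Of 20906 genes 920 (4.4%) had a slope at an adjusted p under 0.05, 549 (2.63%) up and 371 (1.77%) down with the score. The 5 high tumors are in both comparisons and hold the highest scores, so that slopes of called genes lean to the same sign by choice. In the squamous list 14 of 24 genes sloped down and 0 up (19 and 0 at an unadjusted p under 0.05), with a median of -3.14, and Sprr2d was at -7.47 (adjusted p = 0.00273). In the basal list 6 of 17 sloped up and 0 down (6 and 2 at an unadjusted p under 0.05), and in the estrogen and progesterone targets 3 of 19 sloped up, with Stc2 at 2.82 (adjusted p = 0.000562) and Areg at 2.78 (adjusted p = 0.0261). Of 26 Wnt genes and 25 proliferation genes 0 had a slope in limma (1 up and 4 down, and 0 up and 3 down, at an unadjusted p under 0.05). For these slopes no count over all genes at an unadjusted p was made. Ccnb1 was at -0.62 (adjusted p = 0.442) and Notum at -0.56 (adjusted p = 0.376). Cited1 was at 6.27 (adjusted p = 0.000864) and Krt8 at 4.73 (adjusted p = 0.0886). Without the late tumors MSU_137 and MSU_86, which leaves 9 tumors over a narrower range of scores, 4 of 20906 genes (0.0191%) had a slope at that threshold. The size changed less in some genes than in others: Areg was then at 3.67 and Stc2 at 2.2, while Sprr2d was at -2.63, Cited1 at 3.34 and Krt8 at 1.99. Outside the hormone lists Agtr1a was at 9.34 and Cnn1 at 7.33. Of the estrogen and progesterone targets Igfbp5, Cxcl12 and Ramp3 changed sign. None of the slopes named here over the 9 tumors was called. Of the genes called higher between high and low tumors 86.7% sloped up over the 11 late tumors and 74.5% over the 9. Of those called lower 18.6% and 22.4% sloped up, against 51.9% of all genes over either set. The 5 high tumors that chose these genes hold the top scores in both sets, so these shares are no separate check. Myb, with a difference of -2.03 between groups, had a late slope of 2.22 (adjusted p = 0.0865).

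Onset was then compared over all 17 arrays with the score as a covariate. Between early and late tumors 545 genes (2.61%) differed, 255 (1.22%) higher and 290 (1.39%) lower in early tumors. In the Wnt list 4 of 26, Wif1, Sp5, Notum and Ctnnb1, were higher in early tumors and 0 lower (9 and 2 at an unadjusted p under 0.05). Of 25 proliferation genes 0 differed (13 higher and 0 lower at an unadjusted p under 0.05 in limma). The unadjusted counts have no count over all genes beside them. Notum was 1.36 higher, Tgfa 1.5, Lmo4 1.51, Rarb 1.05 and Igf1r 1.04, while Stc2 was at -0.92 and Sec14l4 at -3.71 (log2, early minus late). MSU_163, at 1.91, was the only early tumor whose score exceeded that of a late tumor. These calls therefore rest on a straight line of ratio on score across ranges that otherwise do not overlap.

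The 7 middle tumors were in neither group, and their place between the groups is described. They were ranked by the same score, and 6 of the 7 arose late, as did all high tumors. For the 2095 genes that were higher and 1436 that were lower without overlap, a middle tumor was placed nearer the high or the low mean. No such share was computed over all genes. The share nearer the high mean was 82.3% and 80.4% in MSU_58, 75.1% and 74.6% in MSU_84, and 79.4% and 83.0% in MSU_62a, the 3 with the next scores. It was 59.8% and 59.5% in MSU_26. It was 25.1% and 43.5% in MSU_163, the early tumor, although its score of 1.91 was above the 1.84 of MSU_26. It was 34.1% and 47.1% in MSU_137 and 45.3% and 48.1% in MSU_86. Over the middle tumors the slope on the score was positive for 78.5% of all genes called higher, 30.8% of those called lower and 51.3% of all genes tested.

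MSU_163, MSU_137 and MSU_86 differed from each other by list. In MSU_163 the squamous mean, -2.01, and the luminal mean, 1.96, were within the range of the high tumors, the estrogen target mean, -0.90, lay between the groups, and the proliferation mean, 0.83, was above every low tumor. In MSU_137 the luminal mean was 2.07 with Krt8 at 2.33 and Csn3 at 6.32, and the squamous mean, 0.06, was within the low tumors. In MSU_86 the squamous mean was 2.61, Krt6b 8.13, Krt8 -4.75 and Krt18 -4.10. Of these late tumors with low scores, 1 thus had Krt8 above and 1 below every low tumor.

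**Figure D5:**
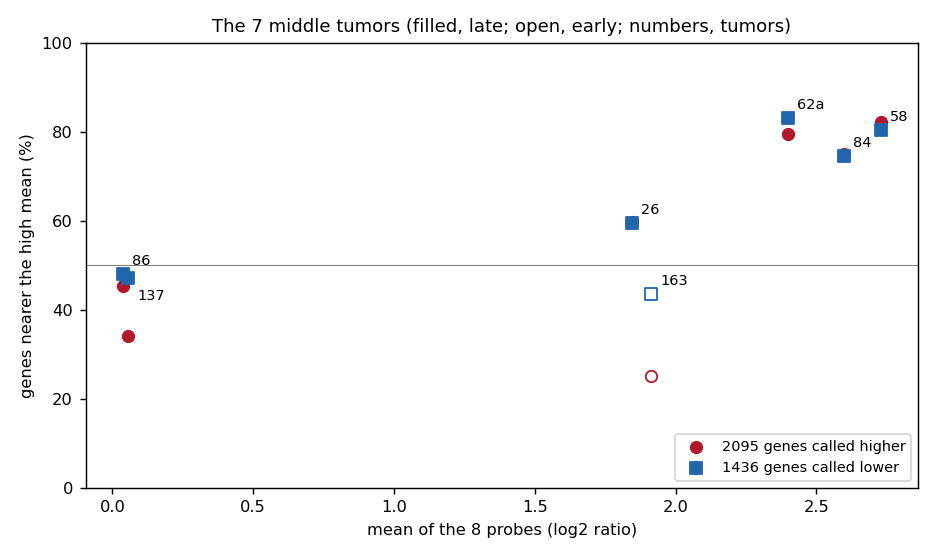
Share (%) of genes in which each of the 7 middle tumors lay nearer the mean of the high than of the low tumors, for 2095 genes higher and 1436 genes lower in high tumors, against the score (log2). The share is 74.6% to 83.0% in MSU_58, MSU_84 and MSU_62a and 25.1% and 43.5% in the early tumor MSU_163.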

How the data were processed

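Mammary tumor RNA was hybridized in Cy5 against a common cell line reference in Cy3, 1 array per tumor, on Agilent 4×44K arrays. The deposited intensity values were made by the authors with Agilent Feature Extraction (11.0.1.1 in the file headers, 8.5.1.1 in the submitters' processing notes) and hold the mean brightness and local background of each spot, without dye normalization. The deposited LogRatio column is the log10 of Cy5 over Cy3, background-subtracted and dye-normalized by that software. The score was computed from LogRatio, multiplied into log2, as the mean over the 8 non-control probes (17 spots, averaged per probe) of Esr1, Prlr, Gata3 and Foxa1. Tumors whose Cy5 was dimmed were left out, and the 5 highest and 5 lowest of 17 arrays formed the groups.

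All other values come from the intensities, in R 4.3.3 with limma 3.58.1. Spots flagged as outliers were made missing, a choice made after the first counts of genes were seen. Normexp (offset 50) served as background correction and loess as normalization within each array, and probes with a signal over 10 in both channels on 80% of the 17 arrays were kept (27229 of 39429). The 66 missing values were filled by the mean of 10 neighboring probes. A gene was represented by its brightest probe, which left 20910 genes including the 4 of the ranking. High and low tumors were compared by lmFit and eBayes over their 10 arrays, with Benjamini-Hochberg adjustment over 20906 genes. Slopes on the score were fitted likewise. The script was tested on simulated data. Precision is limited by the number of arrays, and scale differences between arrays were set by loess.

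The groups, the 19 gene lists and the rule for named genes were chosen with earlier results of these data known. The rule named the 10 largest rises and falls without overlap, the called members of 5 hormone-related lists with some receptors and keratins whatever their p, and the 2 genes with the smallest p of each other list. Genes named only as called or not called are list members, and Pgr alone was fitted with another filter. Promoters were taken from RefSeq (GRCm38.p6), probe positions from the array files (mm9), and 66 of 94 named genes had a promoter. Alternatives covered the background correction, normalization, filters, choice of probe, test, batches, score and group size. 1 gene of the receptor list is not reported here.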

Additional observations from a re-analysis of the deposited data

Results flagged for a closer look

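In 11 of 233 groups of tumors 1 tumor stood far from the others by Dixon's criterion, which chance does in about 1 in 20 groups. A group was a gene, a list mean or the score in the 5 high or the 5 low tumors. For the score and the 4 ranking genes the 7 middle tumors were a group as well. The 11 groups were all of 5 tumors. MSU_34 was at 4.97 for Foxa1, one of the ranking genes (the other high tumors were at 4.24 to 4.37), and at 2.15 for Cd14 (3.06 to 3.30). MSU_45 was at 2.64 for Hey1 (1.45 to 1.68), at -3.16 for Rarb (-2.74 to -2.61) and at -0.060 for the mean of the steroid and growth hormone receptors (-0.36 to -0.28). MSU_122a was at 4.12 for Igfbp5 (2.73 to 3.00) and at -1.57 for the skeletal muscle mean (-4.79 to -4.14). Among the low tumors, MSU_768 was at -1.36 for Agtr1a (-2.71 to -2.46), MSU_97 at 1.53 for Lmo4 (2.38 to 2.69) and at 0.17 for the mean of the ErbB receptors and ligands (0.02 to 0.06), and MSU_62b at 1.18 for Notum (1.94 to 2.23). All are log2 ratios of tumor to reference.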

How the results depend on the processing

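The number of genes called, 4866, stayed within 1.5 times under most alternatives and was 3940 to 4872 with 1 tumor left out. It was 3192 with the middle tumors in the fit, 3109 within scan session 1, 1086 for the slope with onset as a covariate, 920 for the slope over late tumors, 4 without the late tumors MSU_137 and MSU_86 (added after seeing the data), 2740 with the score as the mean of 4 gene means or without Esr1, where MSU_86 replaced MSU_54 among the low tumors, 1985 without Prlr, where MSU_137 and MSU_86 replaced MSU_54 and MSU_62b, and 7489 at an unadjusted p. It was 4728 with spots of flagged background also missing and 4853 with the score over single spots, both added after seeing the data. Of 84 called named genes, 48 kept call and direction in all of 37 settings. These leave out the slopes over late tumors, the slope with onset as a covariate and the fits within a batch. The slope over all 17 arrays is among the 37. Of 3817 values of named genes over all settings, 3372 kept their direction and side of the threshold. Of the other values 399 lost the call, 11 gained it and 35 changed sign. Over the late tumors alone the sign changed for Lmo4 (0.96), Myb (2.22), Mylpf (-0.14), Nfib (0.56), Tfap2c (0.28) and Vdr (-0.18). Without MSU_137 and MSU_86 it changed for Cd14 (-1.60), Csn3 (-0.40), Cxcl12 (-0.27), Elf5 (-0.27), Flt1 (-0.26), Igfbp5 (-0.22), Krt5 (1.04), Mfge8 (-0.56), Myb (0.28), Myh2 (-4.16), Ramp3 (-0.55), Tfap2c (0.31), Thra (-0.48), Trp63 (0.42) and Vdr (-0.27), and with onset as a covariate for Lmo4 (0.63), Myb (0.83), Nfib (0.52) and Tfap2c (0.34). Genes not called also turned. Cd79b was at -0.032 with median centering, -0.55 within session 1 and -0.11 with 4 tumors a group. Erbb3 was at -0.061 with session as a block and -0.26 within session 1. Jchain was at 0.12 from the scanner LogRatio and 0.033 within session 2, whose high and low arrays all lie on slide 4. Mylpf was at -0.012 in the tumor channel alone. Trp63, whose probes disagree, was at 0.52 with flagged background missing. The cause was not tested in these cases. Tfap2c lost its call without any 1 tumor other than MSU_34 (adjusted p 0.0615 to 0.104). The hair keratin count lower was 2 to 13 with 1 tumor left out, 2 with session and 3 with slide as a block. Of 25 proliferation genes 11 were lower within session 1, 19 within session 2, which holds 1 high tumor, and 10 with the middle tumors in the fit, where squamous genes lower fell from 20 to 10 and prolactin pathway genes higher from 8 to 4. Milk protein genes higher were 4, 7 with session as a block and 11 within session 2, and T cell markers higher 2, 0 with the middle tumors in the fit, and 6 with slide as a block or within session 2. The mean share of genes in which middle tumors lay nearer the high mean, 57.3% for higher and 62.3% for lower genes, was 53.6% to 57.8% and 61.7% to 69.9% over 17 settings. No paired analysis was possible because no label ties one tumor to another. Onset and group cannot be told apart in the high and low tumors, diet in puberty differed between them in all but MSU_67, the number of arrays limits the precision, and transcripts dim in the cell line reference, such as Pgr, fell outside the tests.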
